A study of Mus musculus with 16 samples.

Results

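In mouse primary hepatocytes, PGC-1α, the transcriptional coactivator of the fasting liver, was densely crosslinked to RNA of Myh9, Tns1, 2900026A02Rik, Ctnnb1 and Epha2. All but 2900026A02Rik are known genes of the actin cytoskeleton or of cell contacts. The 5 genes were chosen by peak number and fold in an earlier look at the same libraries, so how their counts and folds stand beside those of other genes is a description and carries no test. Tests are given of where the peaks lie and of differences between libraries of the same gene. A cluster, a region of piled-up reads, was counted for a gene when its midpoint lay inside the gene on the same strand. The 5 genes held 4937 of 1331383 clusters, and 371 of the 8478 rows of the 4 deposited lists of reproducible peaks. They are 5 of 13183 genes with a cluster, and all 5 had clusters and enriched peaks in each of the 8 libraries.

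Hepatocytes freshly isolated from C57BL/6J mice were starved in culture overnight and then given 200 nM glucagon, the hormone of fasting, for 3 h, or were labelled untreated (control). Ultraviolet light (254 nm, 400 mJ/cm2) joined PGC-1α to RNA, and seCLIP, an eCLIP assay with single-end reads, set the recovered RNA against an input. Each of the 4 groups (glucagon lower band, glucagon upper band, control lower band, control upper band) had 2 immunoprecipitated (IP) libraries, named here by treatment, band and replicate number. What the bands hold is not stated in the labels, and neither is the origin of the replicates, so every p-value measures the spread between libraries, which may be technical.

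The files give each cluster a log2 fold over input and a p-value, and an enriched peak is a cluster with a log2 fold of at least 3 and a −log10 p of at least 3. The libraries held 26279 to 207718 clusters with glucagon and 132622 to 260814 in the control, of which 2.70% were enriched. The smallest was glucagon lower 1, with 26279 clusters and 979 enriched peaks. All 10 hepatocyte markers had clusters, at 3.78 to 13.8 per 1000 clusters with glucagon and 1.82 to 2.76 in the control. Of the markers of other liver and blood cells, 2 of 8 for Kupffer cells, 1 of 7 for endothelial cells, 1 of 7 for stellate cells, 2 of 6 for cholangiocytes, 0 of 4 for erythroid cells and 1 of 4 for leukocytes had any cluster, and none had a reproducible row. Clec4f, Pecam1, Lrat, Krt19, Hba-a1 and Ptprc were among those at 0. The 10 hepatocyte markers had no reproducible row either. An enriched peak was found for 2 of them and for 0 of the markers of other cells. Read depth is unknown, and more RNA of a gene and more binding per RNA cannot be told apart from peak counts alone.

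Myh9 encodes the heavy chain of nonmuscle myosin IIA, the motor that pulls on actin filaments beneath the cell membrane. Tns1 encodes tensin, which ties integrins to actin at adhesions to the matrix. Ctnnb1 encodes β-catenin, which joins cadherins to actin at adherens junctions and also carries the Wnt signal to the nucleus, a pathway known for zoning the liver lobule. Epha2 encodes a receptor tyrosine kinase for ephrins on neighbouring cells. 2900026A02Rik is annotated as protein-coding with no role given here.

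Sequence of bound RNA could be read where an annotated exon covers an enriched peak, and 1 or 2 such stretches per gene are shown as examples. They do not stand for the bulk of the peaks, which lay in introns whose sequence was not read here. They are written 5′ to 3′ on the transcribed strand from GENCODE M21 transcripts (mm10), and capitals mark the bases inside enriched peaks of the largest number of libraries.
Ctnnb1, chr9:120933853-120933882, plus strand: CCTCCGTGGCCCGCGGAGCCGGGGGGACGC
Ctnnb1, chr9:120933937-120933961, plus strand: ttttTCTCCCTGCAACGACCTGACT
Tns1, chr1:74037016-74037043, minus strand: TGCCAGCTCAGACGCTGGTCCTGCCGCT
Tns1, chr1:73928125-73928183, minus strand: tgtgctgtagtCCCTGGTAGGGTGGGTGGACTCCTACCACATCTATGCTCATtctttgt
Myh9, chr15:77806893-77807006, minus strand: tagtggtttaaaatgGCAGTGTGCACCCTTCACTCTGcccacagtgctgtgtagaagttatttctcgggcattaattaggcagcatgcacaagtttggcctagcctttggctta
Epha2, chr4:141310893-141310958, plus strand: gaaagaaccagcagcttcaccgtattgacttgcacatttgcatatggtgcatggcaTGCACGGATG
2900026A02Rik, chr5:113118119-113118255, minus strand: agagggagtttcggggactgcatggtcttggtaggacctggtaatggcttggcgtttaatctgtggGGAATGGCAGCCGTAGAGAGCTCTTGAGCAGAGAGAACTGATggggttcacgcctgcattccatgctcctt

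The first Ctnnb1 stretch lay inside enriched peaks of all 8 libraries, at a mean log2 fold of 4.49, and 86.7% of its 30 bases were G or C. The second lay in peaks of 2 glucagon and 4 control libraries and begins the peak of highest fold in the gene, log2 6.10, with 48.0% G or C. Both belong to the exon of Ctnnb1-207 that is 5′ UTR there and intron in the longest transcript. The Tns1 stretch of 28 bases was a whole peak in 1 glucagon library and lay inside a longer peak in 1 control library, with a mean log2 fold of 5.06 and 67.9% G or C. The stretch of Tns1 from a retained intron was in 3 libraries at a mean log2 fold of 3.35, with 50.8% G or C. The Myh9 stretch, from the retained-intron transcript Myh9-206, was in 3 glucagon and 1 control libraries at a mean log2 fold of 3.23, with 46.5% G or C. The Epha2 stretch was in 1 glucagon and 3 control libraries at 3.39, and the 2900026A02Rik stretch, inside F830115B05Rik, a transcript that the annotation marks as awaiting an experimental check, in 1 glucagon and 2 control libraries at 3.43. Base composition thus ran from 46.5% to 86.7% G or C among the 7 stretches.

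Tns1 had 388 enriched peaks, 2900026A02Rik 315, Myh9 263, Epha2 174 and Ctnnb1 78, which placed them 4th, 7th, 9th, 23rd and 78th of the 3043 genes with any. The share of a gene's own clusters that were enriched was 48.1% in Epha2, 39.4% in 2900026A02Rik, 22.3% in Ctnnb1, 20.7% in Tns1 and 16.9% in Myh9, against a median of 9.46% over the 395 genes with at least 20 enriched peaks. The median log2 fold of the enriched peaks was 4.30 in Ctnnb1, 3.66 in Epha2, 3.50 in Tns1, 3.47 in 2900026A02Rik and 3.41 in Myh9, against 3.61 for all enriched peaks. The highest log2 folds were 6.52 in 2900026A02Rik, 6.43 in Epha2, 6.10 in Ctnnb1, 5.56 in Tns1 and 5.05 in Myh9. In mm10, Myh9 spans chr15:77760587-77842175 (minus strand), Tns1 chr1:73910231-74124449 (minus), 2900026A02Rik chr5:113086323-113221236 (minus), Ctnnb1 chr9:120929216-120960507 (plus) and Epha2 chr4:141301240-141329384 (plus). The gene with fewest peaks of the 5 thus had the highest typical fold. Tns1, the longest of the 5 at 214219 nt, had the most.

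**Figure D1:**
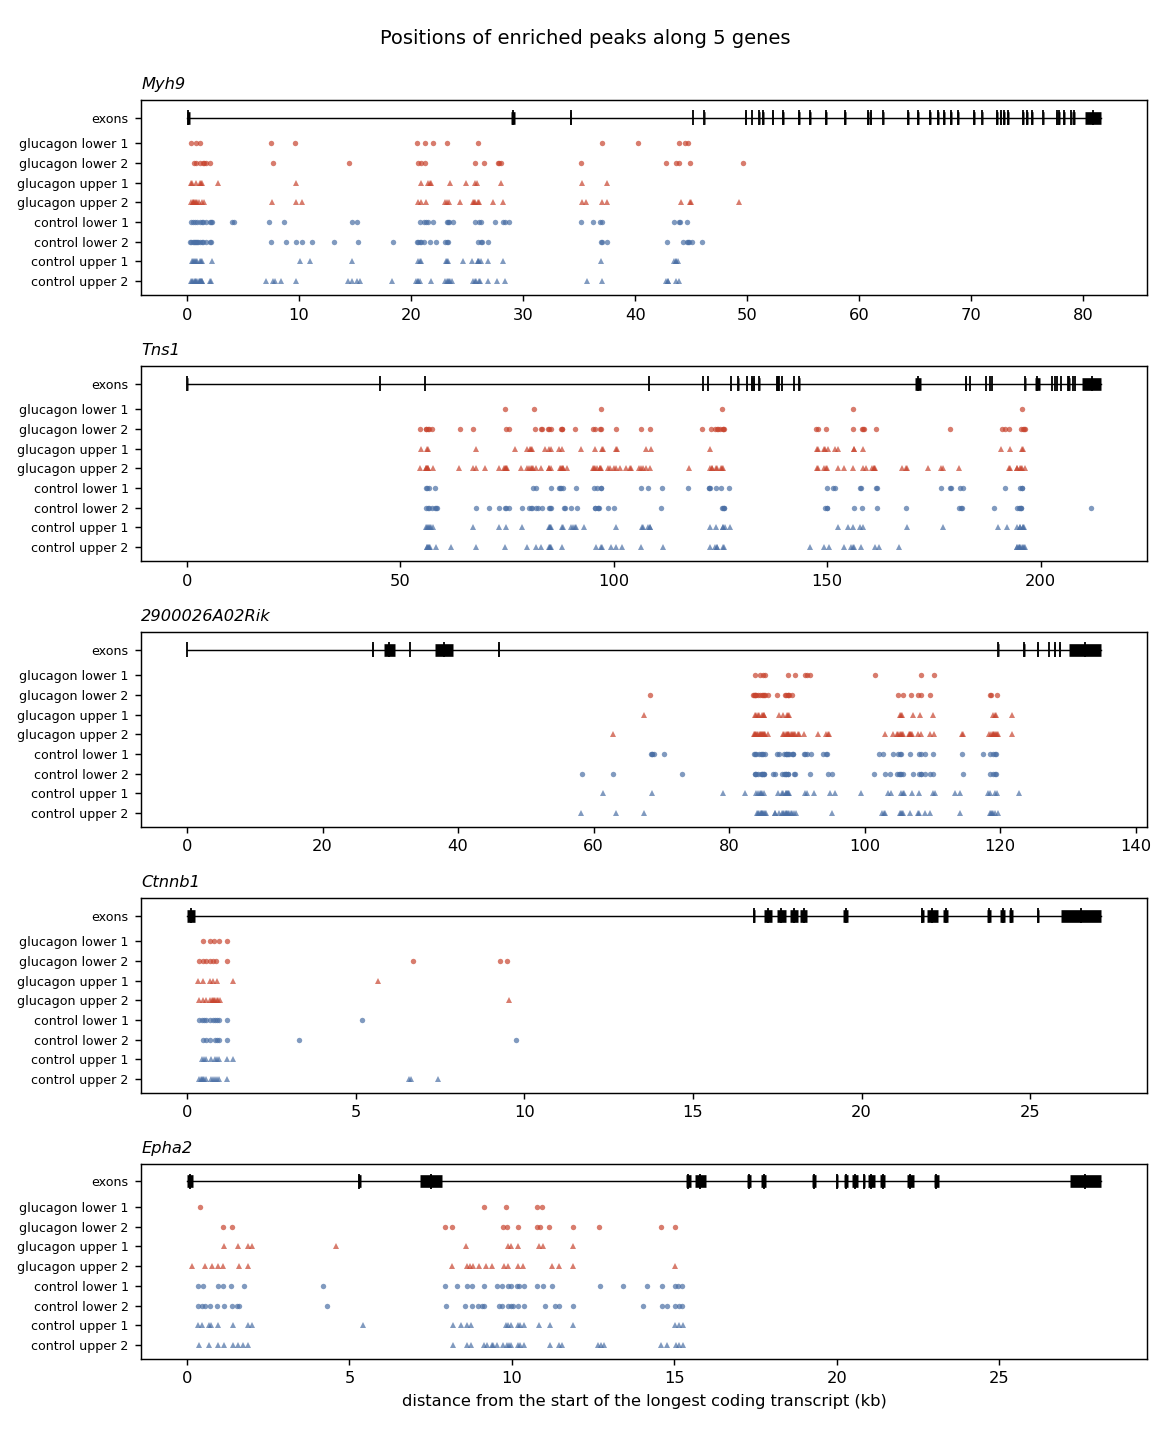
Positions of enriched peaks in each of the 8 IP libraries (rows; circles lower band, triangles upper band, red glucagon, blue control) by distance in kb from the start of the longest coding transcript, whose exons are black. In Ctnnb1 65 of 78 peaks lay in the first 1000 nt of intron 1, in Myh9 212 of 263 lay in intron 1, and in Tns1 and 2900026A02Rik 0 lay in the first intron.

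Of the peaks and clusters by region, the myosin gene showed the sharpest split. The coding exons of Myh9 held 267 clusters and its 3′ UTR 54, and 0 of these were enriched, while its introns held 41 enriched peaks among 146 clusters within 500 nt of an exon and 215 among 972 further away. The intronic share was 97.2 ± 2.55% of enriched peaks and 70.2 ± 13.8% of all clusters of Myh9 (SD, n = 8 libraries). In the single libraries, the intronic share of all Myh9 clusters was 48.8%, 59.9%, 59.5% and 80.1% with glucagon (lower 1, lower 2, upper 1, upper 2) and 65.5%, 75.7%, 84.5% and 87.3% in the control. Within each band both glucagon values lay below both control values, as they did in 14.6% of 376 genes, and over the 2 bands together the treatments overlapped. The intronic share of enriched Myh9 peaks was 94.3% to 100% with glucagon and 95.1% to 100% in the control.

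The other 4 genes were placed alike. In Ctnnb1, 83.1 ± 5.42% of enriched peaks and 66.8 ± 7.87% of all clusters were intronic. Its 3′ UTR held 52 clusters and its coding exons 37, of which 0 were enriched, and 13 of its 78 enriched peaks lay in the 5′ UTR exon of Ctnnb1-207. In Epha2 the shares were 96.9 ± 4.86% and 85.4 ± 9.78%, in Tns1 96.8 ± 2.42% and 91.3 ± 1.87%, and in 2900026A02Rik 99.7 ± 0.722% and 94.6 ± 2.91%. The difference was 27.1 percentage points in Myh9, 16.3 in Ctnnb1, 11.5 in Epha2, 5.46 in Tns1 and 5.17 in 2900026A02Rik. Each was positive in 8 of 8 libraries and passed the two-sided exact sign-flip test (p 0.00781, the smallest that 8 libraries allow, adjusted p 0.0373 over 377 genes). This and the sign-flip tests below take the 8 libraries as independent, and lower and upper band libraries may not be. Of those 377 genes, 36.9% passed with a higher and 2.92% with a lower intronic share, and the median difference was 5.32 points. The differences in Myh9, Ctnnb1 and Epha2 were larger than that median and those of Tns1 and 2900026A02Rik were close to it. With 1 library left out the 5 genes kept their direction. The adjusted p of the sign-flip test was 0.0424 without glucagon lower 1 and above 0.05, up to 0.0658, without any other library. In each case 7 libraries allow no exact p under 0.0156, so passing depended on how many other genes reached that floor.

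**Figure D2:**
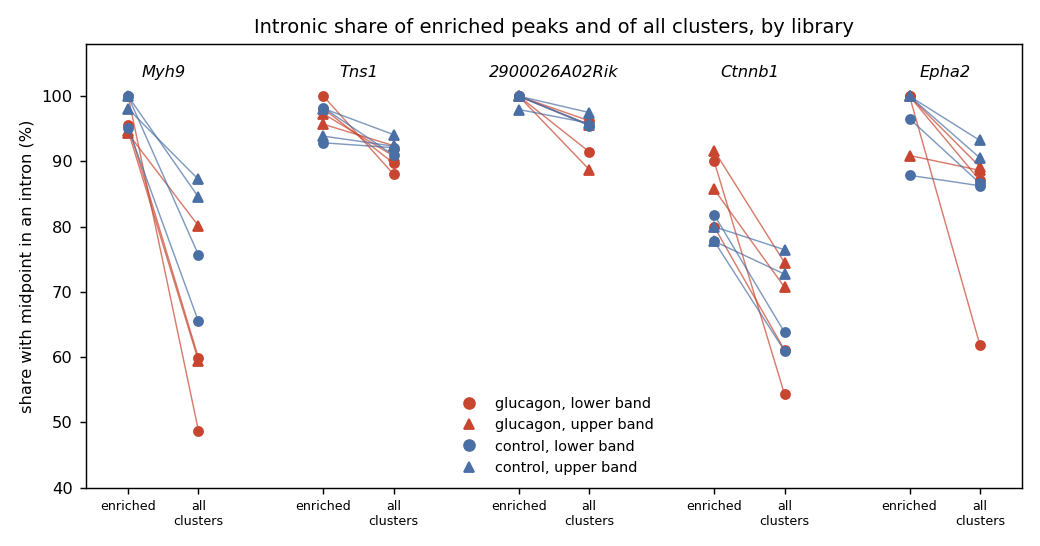
Share of enriched peaks (left of each pair) and of all clusters (right) with the midpoint in an intron, in percent, for 5 genes, with 1 line per library (circles lower band, triangles upper band). Each line falls to the right, most in Myh9, where the means are 97.2% and 70.2%, and the axis begins at 40%.

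Within the introns, the peaks kept to few of them. Of the 40 introns of Myh9, 4 had an enriched peak, and intron 1 held 212 and intron 3 held 48 of the 263. Intron 5 of Myh9 held 91 clusters, at 25.2 per kb about as dense as intron 1 at 26.2 per kb, and 2 of them were enriched against 212 of 752. All 78 enriched peaks of Ctnnb1 lay in intron 1 of its longest transcript. Intron 6 of 2900026A02Rik, 73627 nt long, held 312 of 315. In Epha2, intron 3 held 125 and intron 1 held 47 of 174, at 16.7 and 9.25 enriched peaks per kb, and intron 3 was the densest of all introns of the 5 genes. In Tns1, 7 of 34 introns held enriched peaks, with 204 in intron 3, 67 in intron 18, 48 in intron 24 and 40 in intron 6. Per kb, intron 6 of Tns1 had 7.72, intron 24 had 6.16, intron 3 had 3.89 and intron 18 had 2.48.

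The first 1000 nt of the first intron stood out in 3 genes. In Ctnnb1, 65 of the 69 clusters there were enriched, or 94.2%, in all 8 libraries, and the window held 83.3% of the intron's enriched peaks and 27.8% of its clusters. In Myh9, 49 of 62 clusters there were enriched, also over all 8 libraries, which is 23.1% of the enriched peaks and 8.24% of the clusters of an intron of 28725 nt. In Epha2 it was 26 of 39, or 55.3% of the enriched peaks and 36.8% of the clusters of intron 1. The first 1000 nt of Tns1 intron 3 held 27 enriched peaks among 44 clusters, 13.2% and 5.55% of the intron. In introns 18 and 19 of Tns1 the same window held 16 and 17 clusters and 0 enriched peaks. Tns1 intron 24 had its peaks at the other end, with 21 of 48 in the last 1000 nt and 1 in the first. This window was chosen after the positions were seen and was not tested.

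**Figure D3:**
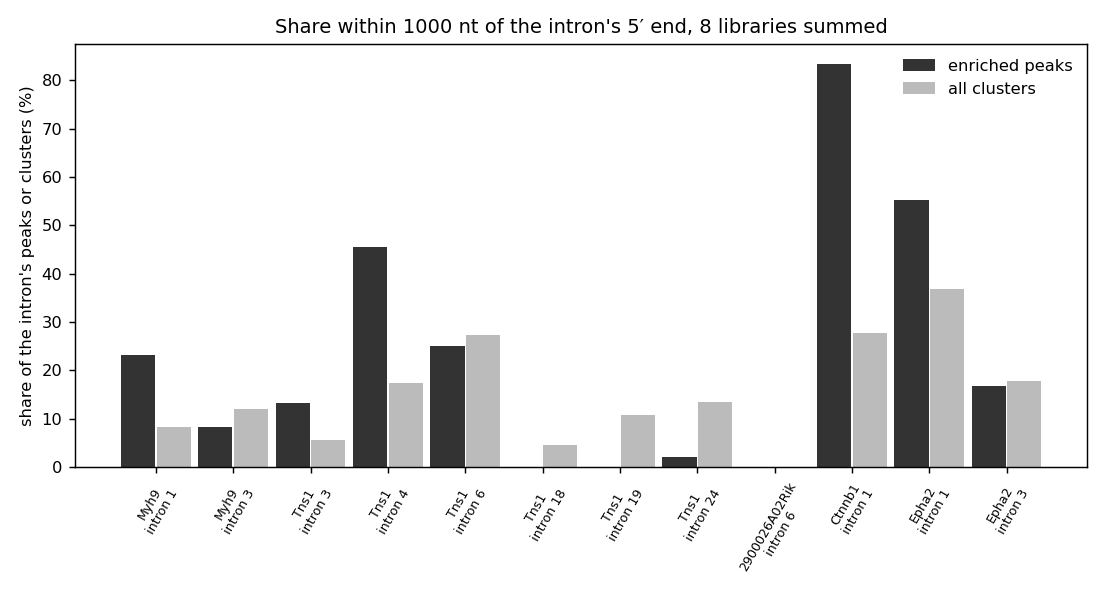
Share of an intron's enriched peaks (dark bars) and of its clusters (light bars) that lay within 1000 nt of its 5′ end, in percent, summed over 8 libraries, for introns with at least 10 enriched peaks. The dark bar is the taller in intron 1 of Myh9, Ctnnb1 and Epha2 and in introns 3 and 4 of Tns1, and it is at 0% in introns 18 and 19 of Tns1 and in intron 6 of 2900026A02Rik.

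A distance of at most 500 nt from an exon was the set measure of this kind. In Ctnnb1, 70.1 ± 11.5% of intronic enriched peaks and 23.8 ± 4.08% of intronic clusters were that near (SD, n = 8 libraries), a difference of 46.3 points that was positive in 8 of 8 libraries. The exact sign-flip p was 0.00781 and the adjusted p 0.0623 over 363 genes, of which 0 passed 0.05 after adjustment and 154 had an unadjusted p under 0.05. The median difference over those genes was 8.60 points. Differences in the other genes were 8.93 points in Epha2, 5.70 in Tns1, 4.49 in 2900026A02Rik and 2.80 in Myh9, with adjusted p from 0.0623 to 0.243 in the same exact test. The first intron held 82.0 ± 8.26% of intronic enriched peaks and 67.4 ± 1.41% of intronic clusters of Myh9, positive in 7 of 8 libraries, with an exact sign-flip p of 0.0156 and an adjusted p of 0.0570. In Epha2 the first-intron shares were 27.6 ± 8.69% and 34.1 ± 3.63%. Of 354 genes, 0 passed after adjustment and 145 had an unadjusted p under 0.05.

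The clusters were also set against the annotated starts of coding transcripts. Tns1 had 0 clusters in its first intron of 44978 nt, and 0 of its 1873 clusters lay upstream of the start of Tns1-208 (chr1:74091351). The 5000 nt after the Tns1-208 start also held 0 clusters, and the first enriched peak lay 21553 nt after it. In 2900026A02Rik 0 of 800 clusters lay upstream of the start of 2900026A02Rik-201, and 766 clusters and 297 of 315 enriched peaks lay downstream of the start of the shortest transcript, 2900026A02Rik-203 (chr5:113137986). In the 5000 nt after that start, 96 of 152 clusters were enriched. The 34 clusters upstream of it numbered 2, 1, 2 and 1 with glucagon (lower 1, lower 2, upper 1, upper 2) and 8, 4, 9 and 7 in the control. Per 1000 clusters of the library they overlapped between the treatments, with 0.00481 to 0.0761 with glucagon and 0.0224 to 0.0603 in the control. Ctnnb1 had 0 clusters between the start of Ctnnb1-203 and that of Ctnnb1-201 (chr9:120933400), and in the 5000 nt after that position 68 of 126 clusters were enriched. In Myh9 it was 80 of 173 clusters in the 5000 nt after the start, and 0 of the 250 clusters downstream of the start of Myh9-209 (chr15:77781133) was enriched. These positions were singled out after they were seen.

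Merging enriched peaks that shared a base gave 493 sites, 212 in Tns1, 110 in 2900026A02Rik, 102 in Myh9, 53 in Epha2 and 16 in Ctnnb1. Sites found in 4 or more libraries were 37.7% of those of Epha2, 31.3% of Ctnnb1, 21.8% of 2900026A02Rik, 17.6% of Myh9 and 10.4% of Tns1, against 8.57% of the 19499 sites of the series. The share in Tns1 was near that background, and peak number, which chose the genes, bears on it. Sites in a single library were 259 of the 493. Sites in all 8 libraries were 8, and they lay in 2900026A02Rik (3), Myh9 (2), Ctnnb1 (2) and Epha2 (1).

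The leading Ctnnb1 site (chr9:120934039-120934399, 581 nt into intron 1) had the steadiest high fold. Its highest log2 fold was 4.79, 5.13, 5.67 and 5.41 with glucagon (lower 1, lower 2, upper 1, upper 2) and 5.21, 5.31, 5.68 and 5.40 in the control. The treatments overlapped, at 5.25 ± 0.376 and 5.40 ± 0.201 (SD, n = 4 libraries each). The second Ctnnb1 site (chr9:120933789-120933930), which holds the first sequence above, had 3.31, 4.25, 4.82 and 4.50 with glucagon and 5.03, 4.58, 4.95 and 4.75 in the control, again overlapping.

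Of the leading sites of the 5 genes, that of Epha2 (chr4:141311025-141311246, in intron 3) had the highest single fold. Its log2 fold was 4.05, 3.16, 4.32 and 3.37 with glucagon and 5.73, 4.12, 6.23 and 4.40 in the control. The lowest control value lay inside the glucagon range, so the groups overlapped, and the means were 3.73 ± 0.547 and 5.12 ± 1.02. The site lies just downstream of the Epha2 stretch printed above.

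In Myh9, the leading site (chr15:77840795-77841103) lay 1226 nt from the transcript start, beside the annotated snRNA gene Gm22107 (chr15:77840657-77840756), which itself held 10 clusters and 5 enriched peaks. Its log2 fold was 3.37, 3.27, 3.52 and 3.67 with glucagon and 4.31, 3.81, 3.41 and 4.31 in the control, and the treatments overlapped. The second Myh9 site (chr15:77841214-77841406) had means of 3.67 ± 0.454 with glucagon and 3.67 ± 0.377 in the control. The leading site of 2900026A02Rik (chr5:113132453-113132603, in intron 6) had 3.24, 3.80, 3.74 and 3.92 with glucagon and 3.26, 3.32, 4.37 and 3.31 in the control. The leading Tns1 site (chr1:73928767-73929012, in intron 24) was enriched in 7 libraries, with 3.27, 3.26, 3.11 and 3.36 with glucagon and 3.82, 3.66, 2.19 and 3.83 in the control. At none of the 25 sites described by fold (the 5 found most widely in each gene) did the treatments separate. Choosing sites enriched in the most libraries works against separation, and the share over all sites was not counted. Libraries without a cluster at a site gave no value there, as at the third Ctnnb1 site, where 2 glucagon libraries had one.

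**Figure D4:**
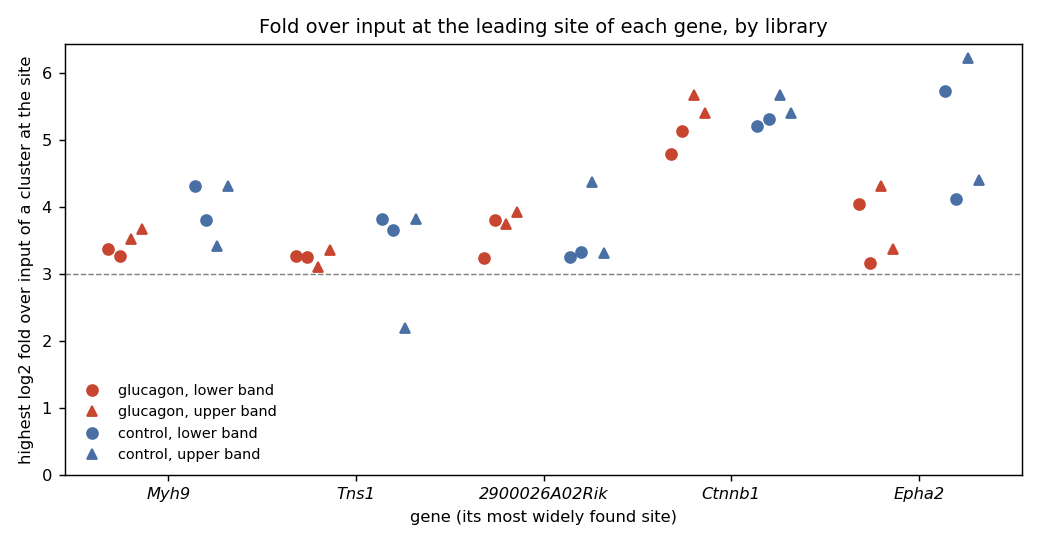
Highest log2 fold over input of a cluster at the most widely found site of each of 5 genes, by library (glucagon left of control, circles lower band, triangles upper band, dashed line the threshold of 3). The Ctnnb1 site sits between 4.79 and 5.68 in all 8 libraries, and the Tns1 site falls to 2.19 in 1 control library.

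Sites enriched in at least 2 libraries of 1 treatment and none of the other numbered 16 for glucagon and 28 for the control. Shares of a gene's sites specific to glucagon were 6.25% in Ctnnb1, 3.77% in Tns1, 3.64% in 2900026A02Rik, 2.94% in Myh9 and 0% in Epha2, against 2.29% over the series. Shares specific to the control were 9.43% in Epha2, 7.84% in Myh9, 6.36% in 2900026A02Rik, 3.77% in Tns1 and 0% in Ctnnb1, against 7.24% over the series. Many of these sites held a cluster that was not enriched in the other treatment. Of the sites specific to glucagon, that was so for 6 of 8 in Tns1, 4 of 4 in 2900026A02Rik, 2 of 3 in Myh9 and 1 of 1 in Ctnnb1. Of those specific to the control, it was so for 8 of 8 in Tns1, 8 of 8 in Myh9, 4 of 7 in 2900026A02Rik and 3 of 5 in Epha2.

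The deposited lists of reproducible peaks, whose folds are the authors' own, give the same genes by group. The 5 genes had 22 of 413 rows (5.33%) in the glucagon lower band list, 97 of 2167 (4.48%) in glucagon upper, 117 of 2206 (5.30%) in control lower and 135 of 3692 (3.66%) in control upper. 2900026A02Rik had 105 rows over the 4 lists, Myh9 89, Tns1 76, Epha2 66 and Ctnnb1 35, and each gene had at least 1 row in each list. Epha2 had 1 and 12 rows in the glucagon lists (lower, upper) and 22 and 31 in the control lists. In Ctnnb1, 31 of 35 rows overlapped enriched peaks in both libraries of their group, in 2900026A02Rik 70 of 105, in Epha2 44 of 66, in Myh9 54 of 89 and in Tns1 43 of 76. Of the 371 rows, the one of highest fold was in Ctnnb1 (chr9:120933937-120933987, control upper band, log2 fold 5.87), and it begins with the second Ctnnb1 sequence above. Among the rows from glucagon libraries Ctnnb1 also led, at log2 fold 5.67 (chr9:120934070-120934119, upper band). The highest Epha2 row was at log2 fold 5.37 in the control lower band (chr4:141309946-141310058), and the highest Tns1 row was at 5.15 in the glucagon upper band (chr1:74039688-74039721).

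Glucagon was compared with the control by enriched peaks per 1000 clusters of the library. Tns1 had 0.228, 0.277, 0.379 and 0.448 with glucagon (lower 1, lower 2, upper 1, upper 2) and 0.317, 0.314, 0.204 and 0.203 in the control. In the lower band both glucagon values lay below both control values (0.252 ± 0.0341 and 0.315 ± 0.00186), and in the upper band both lay above (0.413 ± 0.0486 and 0.204 ± 0.000675, a ratio of 2.03). Such opposite separation in the 2 bands occurred in 14.9% of the 395 genes tested, and the difference between the bands was not tested.

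Myh9 had 0.571, 0.122, 0.195 and 0.168 with glucagon and 0.309, 0.258, 0.133 and 0.199 in the control. The values overlapped, and the difference was 0.0391 (two-sided exact permutation within bands, p 0.833, adjusted p 0.943). Without glucagon lower 1 it was -0.0730. 2900026A02Rik had 0.457, 0.154, 0.246 and 0.313 with glucagon and 0.362, 0.264, 0.171 and 0.188 in the control. The values overlapped, with a difference of 0.0464 (exact permutation p 0.611, adjusted p 0.838), or -0.0292 without glucagon lower 1. In the upper band alone, both glucagon values lay above both control values in 2900026A02Rik (ratio 1.56) and in Ctnnb1 (ratio 1.36), as in 45.3% of the genes tested, with the reverse in 8.61%.

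Ctnnb1 had 0.190, 0.0532, 0.0717 and 0.0578 with glucagon and 0.0829, 0.0505, 0.0375 and 0.0575 in the control. Epha2 had 0.190, 0.0745, 0.123 and 0.106 with glucagon and 0.219, 0.185, 0.104 and 0.130 in the control. Over the 4 libraries of each treatment both sets overlapped, and the differences were 0.0361 in Ctnnb1, 0.0734 in Tns1 and -0.0362 in Epha2. These 3 are given without a p because peaks of theirs led earlier lists that compare or rank within a treatment. None of the 5 genes separated over all 8 libraries, whereas 5.57% of the genes tested lay higher and 4.81% lower in all 4 glucagon libraries. The design allows no p under 0.0556, and the smallest adjusted p over the 395 genes was 0.448. With enriched peaks counted per 100 clusters of the same gene, the signs in Myh9, Tns1, 2900026A02Rik and Ctnnb1 turned. Hepatocyte marker clusters per 1000 were also higher with glucagon, as given above, and their part in these rates was not tested.

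**Figure D5:**
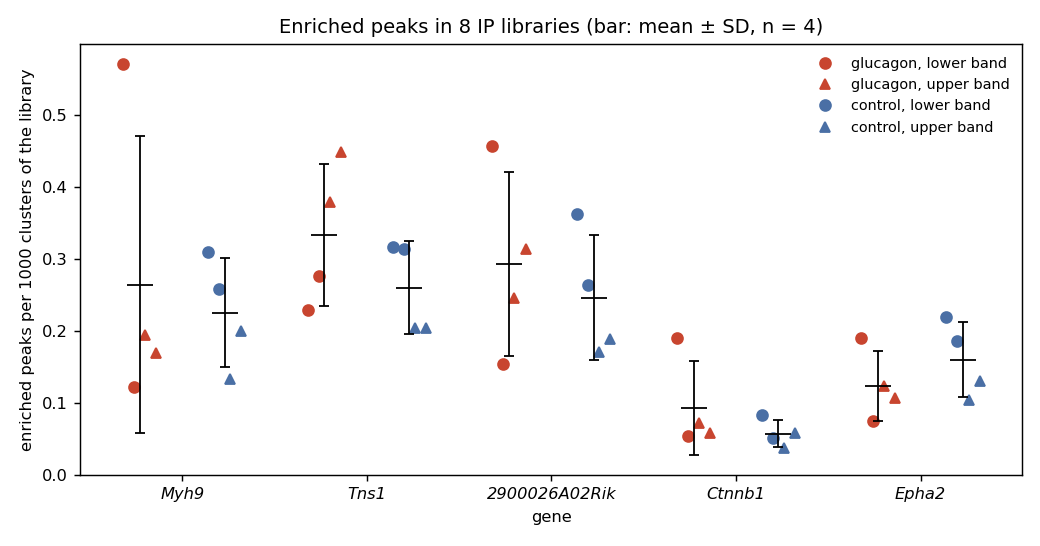
Enriched peaks per 1000 clusters of the library in each of the 8 IP libraries for 5 genes, glucagon left of control (circles lower band, triangles upper band, bars mean ± SD over 4 libraries). The treatments overlap in every gene, and glucagon lower 1, at 0.571 in Myh9 and 0.190 in Ctnnb1, sits far above the other glucagon libraries there.

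The upper band was set against the lower band in the same way. The difference, upper minus lower, was -0.141 in Myh9 (exact permutation p 0.222) and -0.0797 in 2900026A02Rik (p 0.333), each with an adjusted p of 0.693. It was -0.0513 in Epha2, -0.0381 in Ctnnb1 and 0.0246 in Tns1, again given without a p because of how these genes were chosen. Means in Myh9 were 0.174 ± 0.0303 in the upper and 0.315 ± 0.188 in the lower band (SD, n = 4 libraries each), and in Tns1 they were 0.309 ± 0.124 and 0.284 ± 0.0413. No gene of the 5 separated by band, against 3.04% of genes tested with all 4 upper libraries higher and 2.03% with all 4 lower, and the smallest adjusted p over all genes was 0.627.

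Across the 8 libraries, Myh9 and Ctnnb1 varied most alike among the 5, with a Pearson r of 0.949 of their enriched peaks per 1000 clusters. Without glucagon lower 1 that r was 0.672, and the highest was then between Myh9 and Epha2, at 0.983. Tns1 had r from -0.220 to 0.200 to the other 4 genes, and without glucagon lower 1 from 0.0631 with Epha2 to 0.662 with 2900026A02Rik. The genes whose rates were most like those of Myh9 were Rbpms (r 0.990), Ube2g1 (0.984) and Ube2d3 (0.981). For Tns1 they were Cdc42bpb (0.924), Cmip (0.897) and Dapk1 (0.890). For 2900026A02Rik they were Hip1r (0.978), Pvt1 (0.950) and Ube2d3 (0.943), for Ctnnb1 Gm47283 (0.988), Zmiz1 (0.983) and Cdkn1a (0.973, and 0.600 without glucagon lower 1), and for Epha2 Rrbp1 (0.919), Actn1 (0.908) and Iffo2 (0.893). All these values share the cluster total of the library as divisor and are a description over 8 libraries.

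Of the wider adhesion and junction machinery, focal adhesion genes were the most often listed. At least 1 reproducible row was found for 21 of 35 focal adhesion genes, 33 of which had a cluster, against 9.38% of all 13156 gene names with a cluster. After Tns1 these were led by Actn1, an actin crosslinker, with 51 rows, Pxn, the adaptor paxillin, with 37, and Tns3, a second tensin, with 21. In the other lists it was 8 of 24 for tight and gap junctions (23 with a cluster) and 7 of 30 for actomyosin (27 with a cluster). It was 7 of 18 for adherens junctions and desmosomes (18 with a cluster) and 7 of 34 for Wnt and β-catenin (29). For ephrins and Eph receptors it was 5 of 27, of which only 14 had a cluster. The counts include those of the 5 genes that are in a list. A list row depends on how many clusters a gene has, and that was not set equal here.

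Among the tight junction genes, the polarity gene Pard3 had 16 rows, and Magi3 and Magi1 had 12 and 11. Beside Myh9, the actin-binding genes Tpm4, Cnn3 and Svil had 19, 14 and 6 rows. Beside Ctnnb1, the adhesion receptor Nectin1 had 23, its partner Afdn 5 and the α-catenin gene Ctnna1 7. In the Wnt list, Dvl1, Tcf7l2 and Lrp6 had 10, 6 and 4. Beside Epha2, Inppl1 and Vav2 had 6 each and the adaptor Nck1 had 2.

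Over these lists, 3 genes had a lower rate in all 4 glucagon libraries than in all 4 control libraries, and none a higher one. Pxn averaged 0.0545 ± 0.0264 enriched peaks per 1000 clusters with glucagon and 0.127 ± 0.0280 in the control, Tcf7l2 0.0111 ± 0.0129 and 0.0299 ± 0.00359, and Cald1, which encodes caldesmon, 0.00253 ± 0.00293 and 0.0240 ± 0.00931 (SD, n = 4 libraries each). The highest glucagon and lowest control rates were 0.0818 and 0.108 in Pxn, 0.0241 and 0.0250 in Tcf7l2, and 0.00532 and 0.0153 in Cald1. The lowest glucagon rate was 0 in Tcf7l2 and in Cald1. Each of the 3 genes had an exact permutation p of 0.0556, the smallest possible, and an adjusted p of 0.448, so none passed. Counted by list, they are 1 of 9 focal adhesion genes tested, 1 of 4 Wnt genes and 1 of 5 actomyosin genes, against the 4.81% of all genes tested. The intronic share was higher among enriched peaks, by the test used above, in 7 of 9 focal adhesion genes, 3 of 3 adherens junction genes, 3 of 4 Wnt genes, 2 of 5 actomyosin genes, 2 of 2 Eph genes and 1 of 6 tight junction genes tested. Read beside the 36.9% of all genes tested, the tight junction count is the lowest, though few genes were tested. Pard3 and Magi1 had differences of -0.658 and -1.23 points and Magi3 of 5.28 points, and none of them passed.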

How the data were processed

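PGC-1α eCLIP was measured in 8 IP libraries, 2 per treatment and band, and the 8 input libraries were not analysed here. The submitters' processing notes name cutadapt, STAR and mm10. How peaks were called, and what made one reproducible, is not given in the sources used here. The deposited files list position, strand, a −log10 p-value (capped at 400) and a log2 fold over input per cluster. Both units were read from the values, since the files have no header. The lists pool the 2 libraries of a group, and their folds and p-values are the authors'. The deposited log2 folds served only to filter and describe peaks.

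Clusters were placed by midpoint and strand in GENCODE M21, exons of any transcript before introns, with introns numbered on the longest coding transcript. Clusters of a nested gene were counted for both genes. The Myh9 counts thus include 10 clusters (5 enriched) of Gm22107. Those of 2900026A02Rik include 42 clusters (8 enriched) of F830115B05Rik. Treatments were compared by exact permutation within bands (36 assignments), bands within treatments, and shares by exact sign flips over libraries (256 assignments), for genes with at least 20 enriched peaks, with Benjamini-Hochberg adjustment over all genes tested. Both tests were tested on simulated data with independent libraries, drawn as Poisson counts or as normally distributed differences in share. Such data do not cover dependence between bands or spread beyond that of Poisson counts. The members and gene lists were chosen with earlier results of these data known. Named genes are the 5 members, the 3 genes with the most similar rates per member, up to 4 genes with most list rows per fixed list, and per member the 5 most widely found sites and the highest row of each list. Cald1 was named after its values were seen. Of the genes that the rule names, 1 is not reported here. Septin2 and Septin9 of the actomyosin list did not match the annotation. The depth per library is unknown beyond its 26279 to 260814 clusters. The alternatives changed the thresholds, the scale or the region rules, left out each library or added a replicate block. Sequence was read from GENCODE M21 transcripts only. Scripts ran in Python 3.11.15 with scipy 1.17.1, pandas 2.3.3, matplotlib 3.10.9 and numpy 2.4.6.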

Additional observations from a re-analysis of the deposited data

Results flagged for a closer look

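The rate of enriched peaks per 1000 clusters in glucagon lower 1 was 0.571 in Myh9 and 0.190 in Ctnnb1. In both genes this library stood apart from the other 3 glucagon libraries by more than Dixon's critical value for 4 samples, with a gap of 0.839 and 0.865 of the range. It is also the library with fewest clusters, 26279. In all, 10 sets of 4 libraries were examined, and chance flags about 1 in 20.

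Tns1 moved in opposite directions in the 2 bands. Its rate, glucagon minus control, was -0.0629 per 1000 clusters for the lower band, against 0.210 for the upper band, and the libraries of the treatments did not overlap in either. The difference between the bands was not tested, and 14.9% of genes showed the same pattern of opposite separation.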

How the results depend on the processing

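Directions for glucagon and for the bands depended on the scale, while the intronic shares kept their direction in all 5 genes. Counts below are of genes whose 4 libraries of each kind did not overlap, and the cause of a change was not tested unless fewer genes were tested. For glucagon against control, with 41 of 395 genes, the count was 121 of 689 at a log2 fold of at least 2, 3 of 105 at 4, 27 of 235 at a −log10 p of at least 5, 24 per 100 clusters of the same gene, 75 over all clusters, and 44 to 77 with 1 library left out. For the upper against the lower band, with 20, it was 36, 8, 13 and 4 at a fold of 2, a fold of 4, per own clusters and over all clusters, 11 with peaks as counted, and 24 to 48 with 1 left out. Leaving out 1 library could only keep or raise both counts, since the same genes were tested and fewer values had to separate.

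Differences of glucagon minus control that turned were, in Myh9, -0.1477 at a fold of 2, -0.08451 at a −log10 p of 5, -19.75 as counted, -4.105 per own clusters and -0.07301 to 0.1512 with 1 library left out. In 2900026A02Rik they were -0.002608 at a fold of 4, -13.75 as counted, -13.01 per own clusters and -0.02924 to 0.122 with 1 left out. Tns1 turned to -3 as counted and -1.868 per own clusters, Ctnnb1 to -2.5 and -0.2528, and Epha2 to 0.02807 at a fold of 4 and 0.09998 over all clusters. Between the bands, Myh9 turned to 3.25 as counted and 1.772 per own clusters, 2900026A02Rik to 10.75 and Ctnnb1 to 2 as counted, Tns1 to -0.02413 at a fold of 4 and -0.2415 over all clusters, and Epha2 to 0.01363 at a fold of 2, 0.003086 at a −log10 p of 5 and 3 as counted.

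Genes called by intronic share, 150 of 377, were 254 of 641 at a fold of 2, 35 of 100 at 4, 85 of 218 at a −log10 p of 5, 248 with introns placed before exons, and 0 to 137 with 1 library left out, where 7 libraries allow no exact p under 0.0156. The call was lost in Tns1 at a fold of 4 (4.135 points) and at a −log10 p of 5 (2.638), and in Ctnnb1 at a fold of 4 (11.05). The near-exon share turned in Myh9 at a fold of 4 (-3.497) and in Tns1 within 200 nt (-0.1135). With 1 library left out, the intronic difference ranged over 23.63 to 29.4 points in Myh9, 4.531 to 6.138 in Tns1, 4.304 to 5.611 in 2900026A02Rik, 13.49 to 18.07 in Ctnnb1 and 7.674 to 12.89 in Epha2.

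By replicate number, r ran from -0.380 to 0.415 over 6 pairs of groups, which cannot decide whether the replicate numbers pair the samples. A replicate block leaves 16 assignments, with a smallest possible exact permutation p of 0.125, and changes only the p-value. The difference for glucagon in Myh9 (0.0391) and the counts of 41 and 20 could not change with it. Depth per library is unknown, and intervals for single peaks could not be given.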
